A study of Rattus norvegicus with 8 samples.

Results

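Tnp1 and Tnp2 encode the transition proteins of rat spermatids, and Prm1, Prm2 and Prm3 belong to the protamine gene family. These 5 genes were taken by their names, through the RefSeq accession that each array probe carries, from one-colour Agilent arrays with 30367 non-control probes, of which 17998 were named as 15154 genes. Each gene had 1 probe, printed as 2 spots per array, and 5 of 5 passed the filter on dim probes that left 10236 named genes for testing. The aged group held 4 arrays of CD9-positive testis cells from Sprague Dawley rats of 21 months, and the young group held 4 arrays of the same sort from rats of 4 months. Rats of both ages carried a green fluorescent protein transgene expressed in germ cells, whose promoter the labels do not name, and no other treatment is given. CD9, a tetraspanin of the cell surface used here as the sorting antigen, is present on spermatogonia and on other cells of the testis. The comparison addressed which transcripts differ in abundance between sorted cells of aged and young animals. Whether each array stands for its own animal is not given in the labels, and a p-value here then measures only how far these samples scatter, which may be technical.

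Transition proteins and protamines package the sperm genome. In elongating spermatids, histones are removed, transition proteins take their place for a short time, and the small, arginine-rich protamines then condense the DNA. In the mouse, transcription of these genes begins in round spermatids, depends on the activator Crem, and is followed by days of storage of the mRNA before translation. Prm1, Prm2, Prm3 and Tnp2 lie side by side on one chromosome, while Tnp1 is on another. The product of Prm3 is an acidic protein that in the mouse was found in the cytoplasm rather than on DNA. Spermatogonia, the cells named in the study's design, stand at the opposite end of the lineage and are not known for expressing these genes.

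The promoter stretches below are shown with the short sequences searched for in them, among them the element bound by Crem, the activator named above. Not every stretch held them. They were taken from RefSeq (assembly GRCr8) for the 4 of 5 genes that matched an entry, and each runs 5′ to 3′ for the 150 bases before the annotated start. Capitals mark matches to TGACGTCA (the palindromic cAMP response element bound by Crem and its relatives), TGACNTCA (the same element with any base in the middle), TATAA (the TATA motif) and TCATAATT (a word seen in more than 1 of these sequences and chosen after they were read). Both strands were searched.
Tnp1, chr9:82044279-82044428, minus strand: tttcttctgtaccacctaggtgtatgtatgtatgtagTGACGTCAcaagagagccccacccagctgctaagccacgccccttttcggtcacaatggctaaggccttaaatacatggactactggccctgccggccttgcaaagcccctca
Tnp2, chr10:5386585-5386734, plus strand: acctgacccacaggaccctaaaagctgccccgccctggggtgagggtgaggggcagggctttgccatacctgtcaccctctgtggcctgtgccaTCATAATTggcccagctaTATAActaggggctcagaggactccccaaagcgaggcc
Prm1, chr10:5378590-5378739, plus strand: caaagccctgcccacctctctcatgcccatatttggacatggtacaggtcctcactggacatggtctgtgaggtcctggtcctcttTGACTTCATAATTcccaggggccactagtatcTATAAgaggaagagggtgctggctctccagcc
Prm3, chr10:5384244-5384393, plus strand: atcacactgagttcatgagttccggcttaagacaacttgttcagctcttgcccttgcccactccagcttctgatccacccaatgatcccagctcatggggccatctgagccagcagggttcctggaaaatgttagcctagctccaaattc

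The full palindrome TGACGTCA was found in the Tnp1 stretch, 113 to 106 bases before the start, and in 1.356% of the same 150-base windows of the 33469 promoters in the table. The Prm1 stretch held the looser form as TGACTTCA, 64 to 57 bases before the start, where 6.923% of all windows held TGACNTCA. TCATAATT stood 59 to 52 bases before the Prm1 start, where it overlaps TGACTTCA, and 56 to 49 bases before the Tnp2 start, against 0.4422% of all windows. TATAA was found in Prm1 at 32 to 28 bases and in Tnp2 at 38 to 34 bases before the start, and in 15.24% of windows. None of these words was in the Prm3 stretch. These matches describe the letters and were not tested as binding sites.

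Arrays were scaled to their 75th percentile of processed signal, which lay between 326 and 524 intensity units, and between 63.0% and 72.0% of probes exceeded background clearly on each. With 8 arrays, their number sets the precision of every value. Young replicate 1 stood apart from the other young arrays: its correlation with young replicate 4 across genes (r = 0.962) was the lowest within either group, and limma's array weights gave it 0.163, against 0.711 to 2.09 for the other arrays. The differences of the transition protein and protamine genes are given with and without it. Correlations between genes over the arrays are given only with it. All 8 arrays lay on a single slide, aged arrays in one row and young arrays in the other, so the row and the age cannot be told apart. Cd9, the gene of the sorting antigen, was well above background on 8 of 8 arrays. Its levels were −1.91 to −1.26 in aged cells and −1.42 to −1.13 in young cells on the log2 scale used below. Without an array of unsorted cells, and with most probes above background, this does not check the sort. Of 23 listed genes of spermatogonia with a probe, 19 were above background on every array. Zbtb16, Gfra1 and the germ cell helicase Ddx4 were among the 19, and Thy1 was above background on no array.

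Levels are given as log2 of the processed signal above the array's 75th percentile, so that 0 is the 75th percentile itself. Different probes capture their targets with different efficiency, so levels are compared between arrays and not between genes. None of the 80 member spot values was saturated, an outlier or near background. The 2 spots of a gene on an array differed by a median of 0.069 and at most 0.261 on the log2 scale.

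Tnp1, the transition protein conserved across mammals, had levels of 6.98, 6.32, 6.98 and 7.15 on aged arrays 1 to 4, against 6.63, 7.51, 7.61 and 7.83 on young arrays 1 to 4. Young arrays 2, 3 and 4 were above every aged array, while young array 1 lay below 3 of the 4 aged ones, so the groups overlapped. Tnp2, a zinc-binding transition protein, stood at 6.27, 5.65, 6.39 and 6.77 in aged cells, against 6.15, 7.01, 7.27 and 7.49 in young cells. The order of the arrays was the same as for Tnp1, with aged array 2 lowest and young array 4 highest.

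Prm1, which in rats encodes the main protamine of the sperm nucleus, had levels of 6.47, 5.90, 6.97 and 7.21 on the aged arrays, against 6.50, 7.31, 7.63 and 7.74 on the young arrays. Again young array 1 fell inside the aged range and the other young arrays lay above it. Prm2, whose protein is made as a precursor and processed, was measured at 3.12, 2.49, 3.35 and 3.70 in aged cells, against 2.85, 4.07, 4.27 and 4.47 in young cells. Prm3 was measured at 4.80, 3.99, 4.85 and 5.12 in aged cells, against 4.41, 5.52, 5.88 and 6.08 in young cells. For both genes aged array 2 was lowest, young array 1 second lowest, and young arrays 2 to 4 were the highest of the 8.

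**Figure D1:**
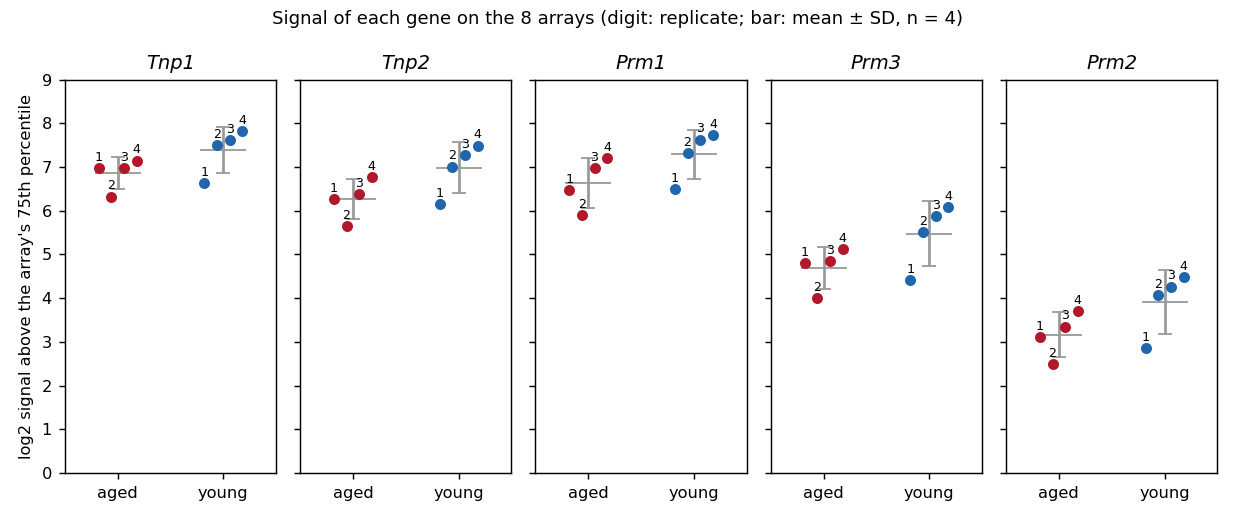
Signal of the 5 genes on each array (y axis, log2 above the array's 75th percentile), aged left and young right, where a digit is the replicate and bars are mean ± SD (n = 4). In each panel young replicate 1 lies among the aged arrays and the other 3 young arrays lie above them. Levels of different genes come from different probes and are not comparable.

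With all 8 arrays, each of the 5 genes had a lower mean in aged than in young cells, and none passed the test. Tnp1 averaged 6.86 ± 0.37 in aged and 7.40 ± 0.53 in young cells (SD, n = 4 each), a difference of −0.54 ± 0.27 (SE, limma adjusted p = 0.208). Tnp2 averaged 6.27 ± 0.47 in aged and 6.98 ± 0.58 in young cells, a difference of −0.71 ± 0.31 (limma adjusted p = 0.160). For Prm1 the means were 6.64 ± 0.58 in aged and 7.30 ± 0.56 in young cells, a difference of −0.66 ± 0.34 (limma adjusted p = 0.207). Those of Prm2 were 3.16 ± 0.51 in aged and 3.91 ± 0.73 in young cells, which differed by −0.75 ± 0.37 (limma adjusted p = 0.195). Prm3 had 4.69 ± 0.49 in aged and 5.47 ± 0.74 in young cells, the widest difference of the 5 at −0.78 ± 0.37 (limma adjusted p = 0.182).

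On a linear scale, the aged signal was 69.0% of the young signal for Tnp1, 61.2% for Tnp2, 63.3% for Prm1, 59.4% for Prm2 and 58.2% for Prm3. The 95% interval of the log2 difference ran from −1.16 to 0.08 for Tnp1 and from −1.62 to 0.06 for Prm3, so that it held both no difference and an aged signal of 32.6% of the young for Prm3. The exact permutation test (two-sided, 4 against 4 values) gave p = 0.114 for Tnp1 and p = 0.143 for each of the other 4 genes, where 0.0286 is the smallest p this design allows. Of the 10236 genes tested, limma called 0.655% at an adjusted p under 0.05, and 0.156% as lower in aged cells, against 0 of the 5. Groups that did not overlap, with aged lower, were found for 4.12% of all genes and for 0 of the 5. A mean lower in aged cells was found for 36.6% of all genes and for 5 of the 5, and the median difference over all genes was 0.11. Differences as low as that of Tnp1 or lower were found for 12.7% of genes, and as low as that of Prm3 for 8.87%. The spread of these genes between arrays of a group was large, at the 87th to 92nd percentile of all genes tested.

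A single array decided the call. Without young replicate 1, a choice made after its values had been seen, all 5 genes passed and the groups of all 5 separated. Tnp1 then fell by 0.79 (limma adjusted p = 0.0198), Tnp2 by 0.98 (limma adjusted p = 0.0207) and Prm1 by 0.92 (limma adjusted p = 0.0441). Prm2 fell by 1.11 (limma adjusted p = 0.0170) and Prm3 by 1.13 (limma adjusted p = 0.0162). The same step called 14.6% of all genes lower in aged cells (36.9% in either direction) and separated 16.5% of them with aged lower. Under limma's array weights, which kept all arrays and gave young replicate 1 the least weight, the 5 genes also passed, beside 16.5% of all genes called lower in aged cells. The differences stayed below 0 under all 23 alternatives computed for each gene, between −1.23 and −0.36.

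**Figure D2:**
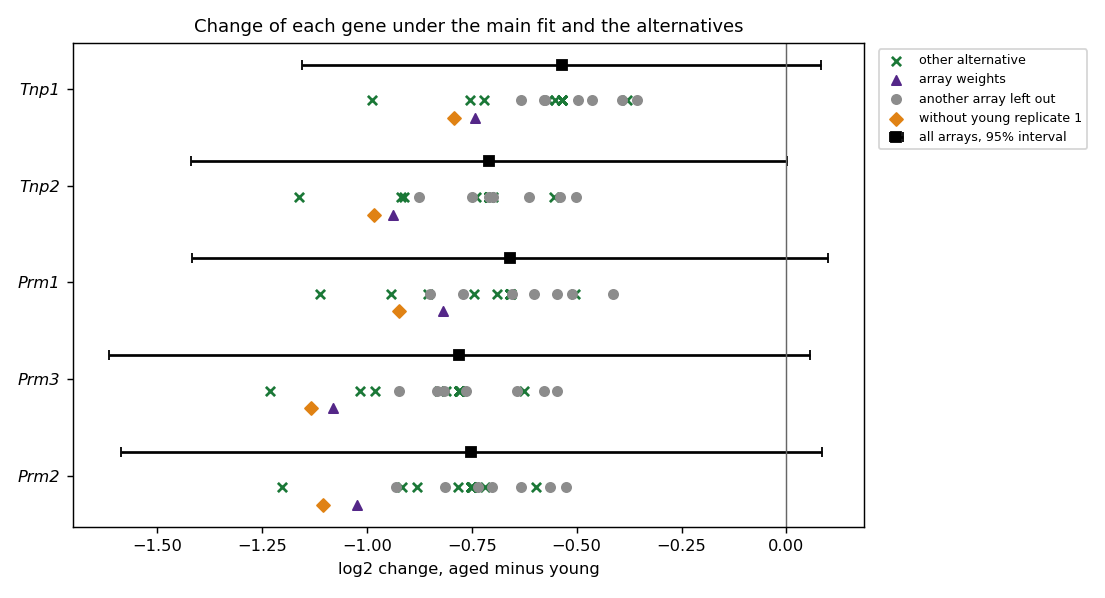
Difference of each gene (x axis, log2, aged minus young) with all arrays and its 95% interval (black), without young replicate 1 (orange), with array weights (purple), with another array left out (grey) and under the other alternatives (green). Every point lies left of 0, and each black interval reaches past 0.

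The signals of these genes were among the brightest on the arrays, although a probe's brightness depends on its sequence as well as on its target. Ranked by processed signal among all non-control probes of an array, Tnp1 stood between ranks 73 and 236 on aged arrays (median 104) and between 16 and 204 on young arrays (median 21). Prm1 ranked between 61 and 334 on aged arrays (median 154.5) and between 17 and 225 on young arrays (median 25.5). For Tnp2 the ranks were 142 to 420 on aged arrays (median 228) and 29 to 301 on young arrays (median 42). Prm3 had ranks of 629 to 1245 in aged cells (median 740.5) and 240 to 1024 in young cells (median 296.5). Prm2, the dimmest of the 5 probes, had ranks of 1485 to 2858 in aged cells (median 1910) and 830 to 2402 in young cells (median 955.5). In each of the 5 genes the worst young rank belonged to replicate 1, and the remaining young arrays all ranked the gene higher than any aged array did.

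Summed over the 5 probes, these genes took 0.332%, 0.208%, 0.373% and 0.449% of the signal of all non-control probes on aged arrays 1 to 4, against 0.268%, 0.647%, 0.754% and 0.807% on young arrays 1 to 4. Young array 1 lay within the aged range and the other 3 young arrays lay above it. In RNA from sorted cells in bulk, fewer spermatids among the cells and less mRNA per spermatid cannot be told apart.

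**Figure D3:**
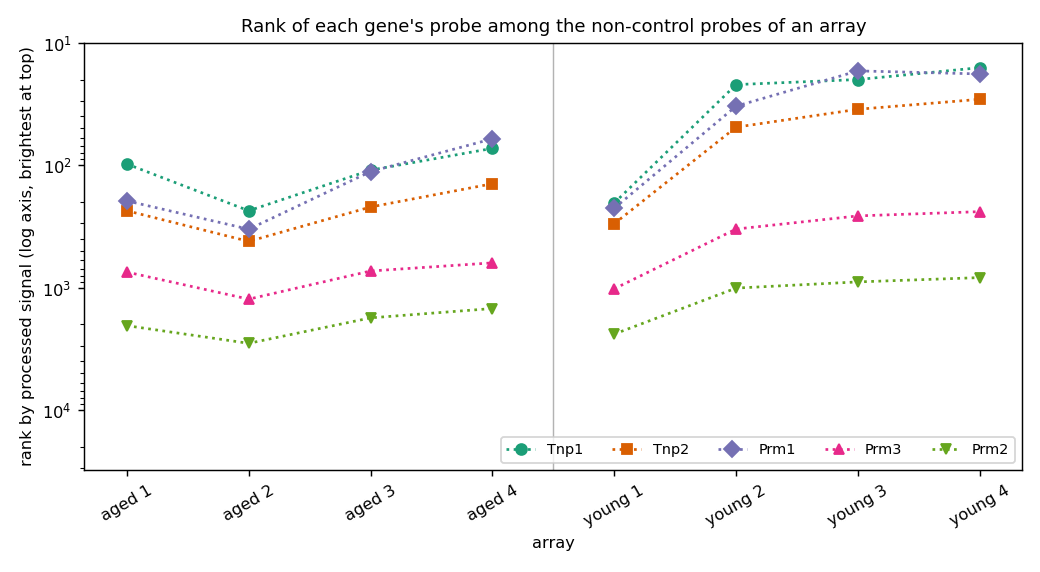
Brightness rank of each gene's probe among the non-control probes of each array (log axis, brightest at the top), aged arrays left and young arrays right. Dotted lines only join the points of a gene, since replicates have no order. Tnp1 reached rank 16 on a young array, and the ranks on young array 1 lie among those of the aged arrays.

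The 5 genes moved together from array to array. Over the 8 arrays, r between members of the 10 pairs lay between 0.957 and 0.995 and Spearman's rho between 0.976 and 1 (exact permutation, Benjamini-Hochberg adjusted p of at most 0.000347 for r and 0.000397 for rho). With the 2 arrays farthest from the median left out, r was 0.896 to 0.990, and with the mean of each age group subtracted it was 0.938 to 0.993. With all arrays, the parallel therefore also held once the group means were removed. Young replicate 1 was kept in each of these values, and r without it was not computed. How far the parallel within an age rests on that array was not tested. The points share arrays and scaling.

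Ratios between 2 genes on the same array do not depend on the scaling between arrays, and they showed whether a gene differed more with age than its partner. With all arrays, none of the 10 ratios passed the exact two-sided permutation test (adjusted p of 0.571 to 0.657 over the 10 pairs, 0 with an unadjusted p under 0.05), and the 2 ages overlapped in every one. The widest difference was that of Prm3 over Tnp1, which differed by −0.24 on the log2 scale, aged minus young, followed by Prm2 over Tnp1 at −0.22 and Tnp2 over Tnp1 at −0.17. The ratio of Prm3 to Prm2, neighbours on the chromosome, differed by −0.03, and that of Prm1 to Tnp2 by 0.05. With young replicate 1 left out, Prm3 over Tnp1 differed by −0.34 (exact permutation p = 0.0286, adjusted p = 0.190), Prm2 over Tnp1 by −0.31 and Prm2 over Tnp2 by −0.12 (exact permutation p = 0.0571, adjusted p = 0.190 for both), and again none passed. The smallest p this test allows is 0.0286, so a ratio that differed alone could not pass after adjustment over the 10 pairs. A p above the threshold therefore does not show that the ratios were equal.

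The genes whose profile over the 8 arrays was most like the mean of the 5 were found among the 10229 other genes with a value on every array. The closest 10 were Spmip9, Iqcf5, Defb33, Oaz3, Spem1, Tmem158, Zfp475, Tcp11, Ccdc179 and Spata32, with r from 0.9947 to 0.9968. Oaz3, an antizyme of haploid germ cells, averaged 5.96 in aged and 6.65 in young cells, and Spem1, a gene of spermatid maturation, averaged 2.85 in aged and 3.59 in young cells. With the group means subtracted, the closest 10 were Ak8, 1700001K19Rikl, C10h17orf107, Defb33, Nudt18, 1700013G24Rikl, Spmip9, Iqcf5, H2ap and Oaz3, 4 of which are on the first list. H2ap is an X-linked gene of the histone H2A family. A profile this close was common, since 944 genes (9.23%) had an r above 0.9 over the 8 arrays and 862 genes (8.43%) had one after the group means were subtracted. These values describe likeness over 8 arrays only. Young replicate 1 was kept in them, and the likeness without it was not computed.

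The few genes tested beside the loci did not differ between the ages as the 5 genes did, by value. Only the difference between the ages is given for them, and most neighbours were not measured. Of the 21 other annotated genes among the 5 on each side of each locus, 4 had a probe and 3 were tested. Litaf, near Prm1, averaged 0.09 in aged and 0.09 in young cells, a difference of −0.006 ± 0.131 (limma adjusted p = 0.981). Socs1, an inhibitor of cytokine signalling next to Tnp2, averaged −4.59 in aged and −4.60 in young cells, a difference of 0.004 ± 0.170 (limma adjusted p = 0.990). Igfbp2, near Tnp1, averaged 3.80 in aged and 3.65 in young cells, a difference of 0.15 ± 0.15 (limma adjusted p = 0.494). Without young replicate 1 these differences were 0.11, 0.16 and 0.24, and none of the 3 passed.

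Genes that act in the exchange of histones were higher about as often as lower. Of 31 listed genes for the chromatin remodelling of spermatids, 21 were tested, of which 12 were higher and 9 lower in aged cells by value, with a median of 0.11, as over all genes, and 0 passed. Camk4, a kinase that phosphorylates Prm2 in the mouse, averaged −0.53 ± 0.39 in aged and 1.29 ± 1.04 in young cells, a difference of −1.82 ± 0.46 (limma adjusted p = 0.0622). Ccer1, a spermatid nuclear protein linked in the mouse to the exchange of histones, differed by −1.90 ± 0.52 (limma adjusted p = 0.0712). The opposite sign was measured for H2ac1, a histone H2A of the testis, at 0.51 ± 0.18, and for Parp2, a polymerase that responds to DNA breaks, at 0.29 ± 0.09. When young replicate 1 was left out, 5 of the 21 rose (the histone genes H1f6, H2bc1, H2ac1 and H3f4, and Parp2) and 5 fell (the spermatid linker histone gene H1f7, Cdyl, Tssk6, Camk4 and Ccer1). The same fit called 22.3% of all genes higher and 14.6% lower, which is the background for these counts and for those of the lists below.

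Among 18 listed regulators of transcription of these genes, 11 were tested, with 4 higher and 7 lower by value, a median of −0.19 and 0 calls. Crem, the activator named above, had −0.19 ± 0.25 in aged and 0.90 ± 0.77 in young cells, a difference of −1.09 ± 0.34 (limma adjusted p = 0.0859). Young array 1 measured −0.12, within the aged range of −0.56 to 0.01, and the other young arrays measured 0.74, 1.38 and 1.59. Fhl5, the coactivator of Crem, differed by −1.28 ± 0.49 (limma adjusted p = 0.118). Gtf2a1l, the germ cell form of a TFIIA subunit, differed by −1.58 ± 0.44 with separated groups (limma adjusted p = 0.0733). Taf7l, a germ cell relative of a TFIID subunit, was higher by 0.60 ± 0.14 with separated groups, and also missed the threshold (limma adjusted p = 0.0561). Of the 11, 2 rose (Taf7l and Pou2f1) and 5 fell (Crem, Fhl5, Gtf2a1l, Rfx2 and Spz1) in the fit without young replicate 1.

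The list for storage and translation of spermatid mRNA had 24 genes, of which 19 were tested, 10 higher and 9 lower by value, with a median of 0.004 and 0 calls. Tdrd6, a component of the chromatoid body, differed by −1.74 ± 0.49 (limma adjusted p = 0.0750), and Paip2, a repressor of translation that binds poly(A)-binding protein, by −0.51 ± 0.15 with separated groups (limma adjusted p = 0.0778). Dazl, a germ cell RNA-binding protein, was higher by 0.52 ± 0.15 (limma adjusted p = 0.0801). The splicing regulator Ptbp2 was higher by 0.68 ± 0.24 with separated groups (limma adjusted p = 0.107). In the fit that left out young replicate 1, 2 of the 19 rose (Dazl and Ptbp2) and 5 fell (Tdrd6, Paip2, Ybx3, Eif4e and Fxr1).

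Genes listed for late spermatids, which include kinases and enzymes as well as structural genes, were lower in aged cells by value more uniformly than the lists above. In 43 tested genes of the sperm head and tail, 41 were lower and 2 higher, with a median of −1.02 against 0.11 over all genes. The only call among them was a rise, of the microtubule linker Hook1 (0.57 ± 0.10, limma adjusted p = 0.0484). The actin-like gene Actl7b differed by −2.26 ± 0.53 (limma adjusted p = 0.0561). Catsper3, a subunit of the sperm calcium channel, was well above background on 1 of 4 aged arrays, and Tekt5, a tektin of the flagellum, on 3 of 4, against 4 of 4 young arrays for both. These 2 genes entered the fit through the young arrays alone, and of the other 41 genes 39 were lower and 2 higher. Without young replicate 1, the median was −1.41, and 41 of the 43 fell and Hook1 rose. The protamine and transition protein differences, −0.78 to −0.54, were smaller in size than this median with all arrays.

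The list for round spermatids and the acrosome had 20 tested genes, 19 of them lower and 1 higher by value, with a median of −0.94, and 18 of the 19 above background on every array were lower. The surface protein Tex101 rose by 0.75 ± 0.11 (limma adjusted p = 0.0465), while the acrosomal protease gene Acr differed by −1.10 ± 0.22 (limma adjusted p = 0.0531) and the hyaluronidase gene Spam1 by −2.46 ± 0.49 (limma adjusted p = 0.0531). With young replicate 1 left out, 16 of these 20 fell and Tex101 rose. Leaving out young replicate 2 left 1 call among all genes, and leaving out any 1 of aged replicates 1 to 4 or young replicates 3 and 4 left 0.

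**Figure D4:**
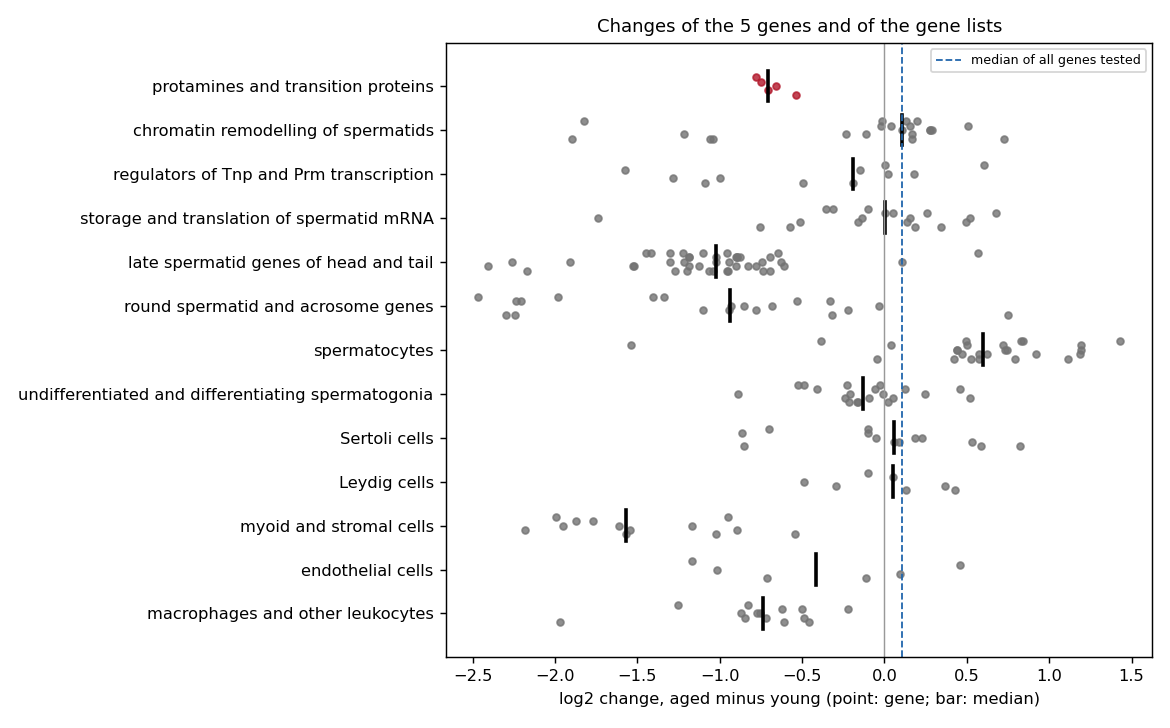
Differences (x axis, log2, aged minus young) of the 5 genes (red) and of the tested genes of each list (grey), with the median of each list as a black bar and that of all 10236 genes, 0.11, as a dashed line. The 5 genes lie between −0.78 and −0.54, and the medians of the late spermatid, round spermatid, regulator, spermatogonial, stromal, endothelial and leukocyte lists lie below 0.

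Markers of the other cells that the sort could hold are given beside these results, as level sums over each list in multiples of the array's 75th percentile. For spermatocytes, 23 of 26 tested genes were higher in aged cells by value (median 0.60), 7 passed as higher and 0 as lower. Leaving out young replicate 1 gave 18 calls as higher and 1 as lower, the cyclin gene Ccna1, which was named after its value was seen. Their sum was 114 to 137 on aged arrays, 90.1 on young array 1 and 74.5 to 81.6 on the other young arrays. For spermatogonia, 6 of 20 were higher and 14 lower (median −0.13), with 0 calls. Of the 19 above background on every array, 6 were higher and 13 lower. The spermatogonial sum was 47.1 to 56.3 on aged arrays, 54.0 on young array 1 and 40.3 to 42.9 on the other young arrays. Dazl alone made up 53.4% to 56.9% of this sum on aged arrays and 41.7% to 47.1% on young arrays. The mean log2 level over the list, with each gene centred, was −0.11 to 0.03 on aged arrays, 0.24 on young array 1 and −0.02 to 0.02 on the others. The late spermatid list summed to 251 to 499.8 on aged arrays, 358 on young array 1 and 702 to 990.2 on the other young arrays. The round spermatid list summed to 77.2 to 112 on aged arrays, 84.9 on young array 1 and 134 to 188 on the others. Both spermatid sums therefore split the arrays as the 5 genes did, but not every gene of the lists did. Some were higher on every young array, young array 1 included, than on any aged array, and are named here for that separation. They were Acr, Spaca4, Izumo1, Spam1, Eqtn and Spesp1 of the round spermatid list, and Actl7b and Catsper3 of the late list. Such groups, not overlapping with aged lower, were found for 4.12% of all genes.

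Somatic markers of some types split them likewise. All 13 tested myoid and stromal genes were lower in aged cells by value (median −1.57, with a call for Cspg4 at −1.55), with sums of 2.06 to 4.54 on aged arrays, 3.55 on young array 1 and 13.7 to 15.7 on the other young arrays. In the fit without young replicate 1, 13 of 13 were called lower (median −2.13), as were 6 of 14 leukocyte and 3 of 6 endothelial genes. All 14 tested macrophage and leukocyte genes were also lower by value (median −0.74, 0 calls), with sums of 6.79 to 20.6 on aged arrays, 9.85 on young array 1 and 28.5 to 31.6 on the others. Aif1 alone made up 30.2% to 41.9% of this sum on aged arrays and 35.7% to 57.0% on young arrays. The centred mean of the leukocyte list was −1.36 to 0.50 on aged arrays, −0.51 on young array 1 and 0.51 to 1.02 on the others. Adgre1, Cd163 and Cd14 of this list and Col3a1 of the stromal list were above background on every young array but not on every aged one, so the filter favoured a lower value there; the other 11 leukocyte and 12 stromal genes were lower too. Of the endothelial genes, 4 of 6 were lower (median −0.41, 0 calls), with sums of 1.29 to 1.55 in aged cells, 1.52 on young array 1 and 1.79 to 1.91 on the others. Of the Sertoli cell genes, 7 of 13 were higher (median 0.06, with a call for Rhox5 at 0.82). Of the 12 above background on every array, 7 were higher and 5 lower. The Sertoli list summed to 142 to 199 on aged arrays, 138 on young array 1 and 121 to 125 on the others. Shbg alone made up 88.0% to 95.6% of this sum on aged arrays and 84.2% to 94.1% on young arrays, and the centred list mean, −0.68 to 0.35 on aged arrays, −0.60 on young array 1 and 0.05 to 0.34 on the others, had no such order. Among 7 tested Leydig cell genes, 4 were higher (median 0.05, 0 calls). Cyp11a1, one of these, was above background on 4 of 4 aged arrays but on 3 of 4 young ones, so the filter favoured a higher value there. Of the 6 above background on every array, 3 were higher and 3 lower. The Leydig list summed to 7.76 to 8.64 in aged cells, 7.80 on young array 1 and 6.39 to 7.62 on the others. Fdx1 made up 51.9% to 65.7% of this sum over all arrays. Gdnf, Hsd3b2, Lhcgr, Lum, Tek and Itgam were well above background on no array. The part of these cells in the differences of the 5 genes was not tested.

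**Figure D5:**
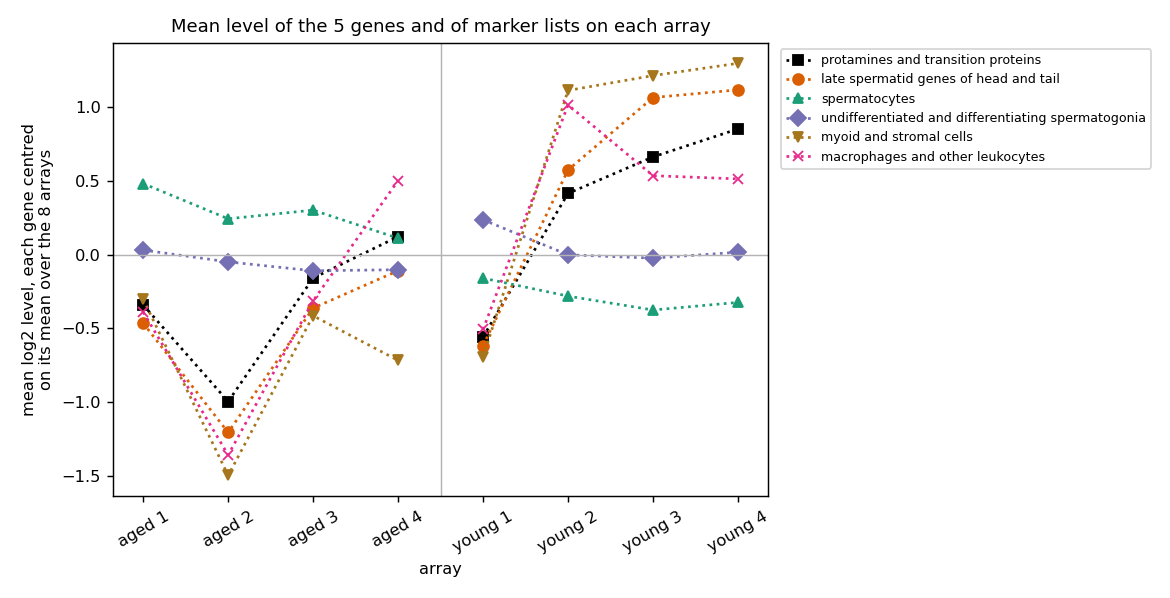
Mean log2 level of the 5 genes and of 5 marker lists on each array, with the average of a gene over all arrays set to 0 (y axis), aged arrays left and young arrays right. Dotted lines only join points of a list, since replicates have no order. The 5 genes (black), late spermatid, stromal and leukocyte lists are low on young array 1 and high on the other young arrays, the leukocyte list also on aged array 4, while spermatocyte genes are higher on every aged array than on any young one.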

How the data were processed

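RNA of CD9-positive testis cells, 18 ng per sample per the labels' protocols, was labelled with Cy3 and hybridised to 8 arrays, and the label for age gave the groups. Per the file headers, the deposited processed signal is an intensity from Agilent Feature Extraction 10.7.3.1 (12.5 in the submitters' processing notes), with background and a spatial trend subtracted and arrays not scaled to each other. Raw median intensity values of spot and background, and marks of 0 or 1 per spot, were deposited beside it. The authors' series table holds log2 values centred per probe, with the scaling before that not given in the sources used here.

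Control and outlier spots were left out, spots were averaged on the log2 scale, and each array's 75th percentile over non-control probes was subtracted. Names came from RefSeq (GRCr8) through unversioned accessions. Probes entered the fit where a share of 0.5 or more of the spots exceeded background clearly on all arrays of 1 group, with 2 or more values per group, and the brightest probe stood for a gene. Tests were two-sided and used limma 3.58.1 in R 4.3.3 (lmFit, then eBayes with 9.15 degrees of freedom, Benjamini-Hochberg over 10236 genes), and exact permutation for single values. The R packages jsonlite 2.0.0 and data.table (version 1.17.8) read the files. All adjusted p-values of genes come from limma. The rule named the 5 genes, the 10 most alike, the tested neighbours and up to 4 genes with the smallest p of each list described. The genes, lists and alternatives were chosen with earlier results of these data known, so their direction is no independent evidence. The procedure was run on simulated data with independent noise for each gene. That simulation held no array that stood apart, so it does not show how the fit behaves with young replicate 1. Alternatives covered scaling, background correction, filters, probe choice, variance model, weights, the replicate number as a block and each array left out.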

Additional observations from a re-analysis of the deposited data

How the results depend on the processing

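The differences of Tnp1, Tnp2, Prm1, Prm2 and Prm3 were below 0 under all 23 alternatives each, and passed limma's test under 2 of them, with array weights and without young replicate 1. With array weights they were −0.74 for Tnp1 (limma adjusted p = 0.0109), −0.94 for Tnp2 (0.00945), −0.82 for Prm1 (0.0263), −1.02 for Prm2 (0.00943) and −1.08 for Prm3 (0.00792). With each array left out in turn they ranged from −0.79 to −0.36 for Tnp1, −0.98 to −0.50 for Tnp2, −0.92 to −0.41 for Prm1, −1.11 to −0.53 for Prm2 and −1.13 to −0.55 for Prm3. The adjusted p over all alternatives spanned 0.00792 to 0.518, and the cause was not tested. Spike-in scaling moved the median gene to −0.35 and median scaling to 0.26, against 0.11.

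The number of genes called, 67 with 16 lower in aged cells, was 1330 (263 lower) with median scaling, 958 (952 lower) with spike-in scaling, 259 (36 lower) with normexp and quantile scaling, 633 (268 lower) with normexp and the 75th percentile, 427 (149 lower) with an intensity trend and 4616 (1687 lower) with array weights. Limma called 0 genes without scaling, without the filter on dim probes, with every probe tested and with the replicate number as a block, where 1389, 3339, 5332 and 3231 had an unadjusted p under 0.05 in that order. Leaving out each array gave 0 to 3776 calls, the most without young replicate 1. Same-numbered arrays deviated from their group means with correlations of −0.26, −0.12, 0.44 and 0.35, so the numbers were not taken as pairs. The replicate block left the 5 differences unpassed (limma adjusted p of 0.123 for Tnp2 to 0.208 for Tnp1).

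No within-array ratio passed under any alternative run, where a ratio that differed alone could not have passed. Of the ratios, 3 changed sign. Prm1 over Tnp2 (0.05) was −0.044 with normexp, and −0.022 (without aged replicate 3) to 0.106 with arrays left out. Prm2 over Prm1 (−0.09) was 0.024 with normexp. Prm3 over Prm2 (−0.03) was −0.081 to 0.0071 (without aged replicate 4) with arrays left out.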
